A study of Oryza sativa with 12 samples.

Results

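B-type cyclins and the B-type cyclin-dependent kinases (CDKB) drive plant cells into mitosis. The 5 rice genes described here are 3 B-type cyclins, CYCB1.1 (LOC_Os01g59120), CYCB2.1 (LOC_Os04g47580) and CYCB2.2 (LOC_Os06g51110), and 2 kinases, CDKB1.1 (LOC_Os01g67160) and CDKB2.1 (LOC_Os08g40170). They were named as a group of mitotic genes, by a rule that sets no threshold on their values, and all 5 were found among the 39093 loci of the series. Each was above the filter on low values and entered the tests with 24276 loci in all. The locus names are those of the RGAP 7.0 rice annotation, in which the first digits give the chromosome, so that CDKB1.1 and CYCB1.1 lie on chromosome 1, CYCB2.1 on chromosome 4, CYCB2.2 on chromosome 6 and CDKB2.1 on chromosome 8.

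The study sequenced RNA of seedling samples of 2 rice cultivars, the drought-sensitive IR64 and the drought-tolerant N22, at 21 days of age. The drought groups of IR64 and N22 were kept for 6 h in 20% polyethylene glycol (PEG) 6000, a polymer that withholds water from the roots, and the control groups of IR64 and N22 for 6 h in RO (reverse osmosis) water. Each of the 4 groups had 3 libraries, numbered 1 to 3 in the labels, and the labels name no transgene or mutation. The labels call the source seedling and leave the tissue open, and PEG in solution is a model of water deficit rather than of drying soil. Levels are given as FPKM, fragments scaled by transcript length and by the number of mapped fragments, which allows levels of different genes to be set side by side.

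A cyclin is the regulatory subunit that a cyclin-dependent kinase needs in order to be active. In plants, transcripts of B-type cyclins and of CDKB kinases, a kinase class found in plants, accumulate from the G2 phase to mitosis, and B-type cyclin proteins are destroyed as mitosis ends. Their transcript levels in a tissue are therefore widely used as a marker of dividing cells, which in a seedling sit mainly in the shoot and root meristems and the bases of growing leaves. In bulk RNA, fewer dividing cells and less transcript per dividing cell cannot be told apart.

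All 5 genes were lower under drought than in water in both cultivars, with no overlap between the 3 drought and the 3 control libraries for any of them. Averaged over libraries, FPKM of the 5 genes under drought lay between 5.05 and 14.7 in IR64, against 10.9 to 32.4 in IR64 controls, and between 5.39 and 16.1 in N22, against 10.2 to 34.6 in N22 controls. Over all loci tested, 23.2% were lower without overlap in IR64 drought libraries and 26.1% in N22 drought libraries, so a lack of overlap was common in these data. Of the 5 genes, CYCB2.2 and CDKB2.1 passed both thresholds of the test, an adjusted p of at most 0.05 and a log2 change of at least 1 in size, in IR64, and these and CYCB1.1 passed both in N22. Across all loci, 4.02% passed both in the lower direction in IR64 and 5.17% in N22. At an adjusted p of at most 0.05 alone, all 5 genes were lower in each cultivar, beside 15.8% of all loci in IR64 and 19.5% in N22.

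**Figure D1:**
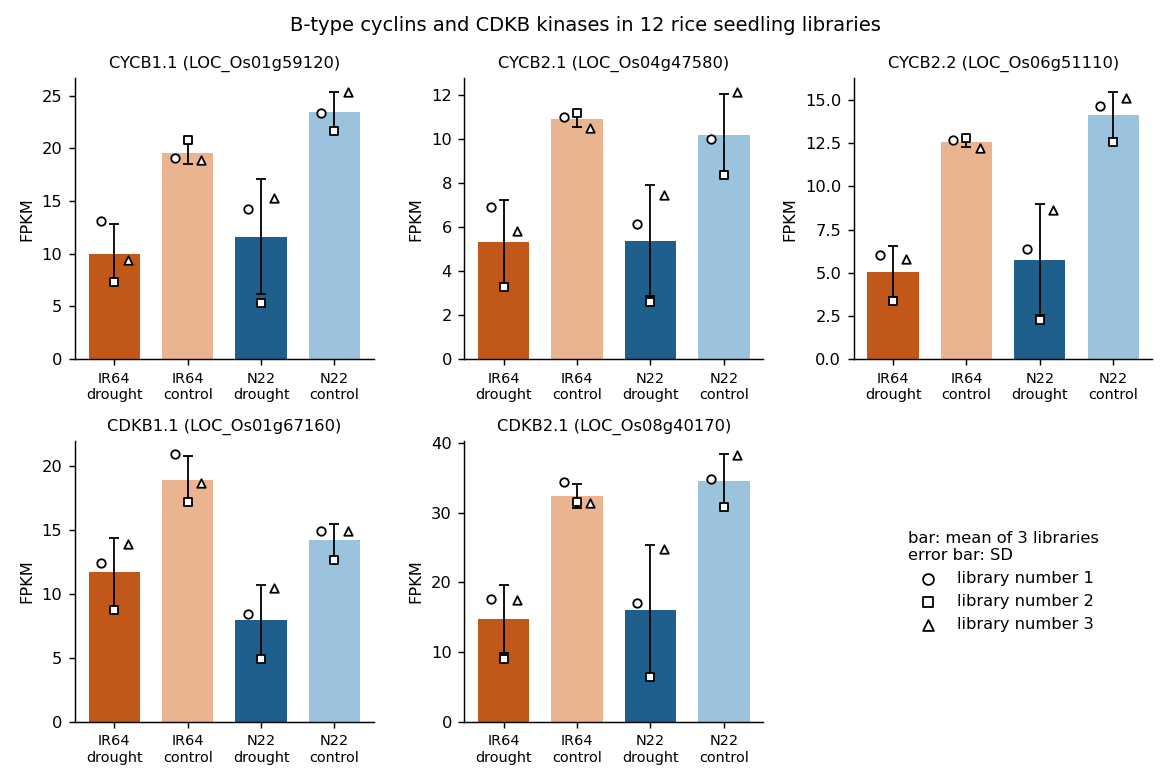
FPKM of the 5 genes in each of the 12 libraries, with drought left of control in each cultivar; bars are means of 3 libraries, error bars SD, and symbols mark the library number. Every drought value lies below every control value of its cultivar, and the drought library numbered 2 is the lowest in all panels.

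Among the cyclins, CYCB2.2 had the largest change. In rice, CYCB2.2 protein is known to bind CDKB2.1, and its overproduction speeds root growth. Its level was 6.01, 3.35 and 5.80 FPKM in IR64 drought libraries 1, 2 and 3, against 12.7, 12.8 and 12.2 FPKM in IR64 control libraries. In N22 it was 6.39, 2.26 and 8.61 FPKM under drought, against 14.7, 12.6 and 15.1 FPKM in control. The control libraries of each cultivar lay close together, and the drought libraries spread widely below them, with library 2 lowest. On the log2(FPKM + 1) scale, which understates changes of low genes, CYCB2.2 fell in IR64, with a change of -1.20 (SE 0.33, limma adjusted p = 0.0215). In N22 it fell as well, with a change of -1.30 (SE 0.33, limma adjusted p = 0.0114).

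CYCB1.1, whose family is the classical reporter of G2 and mitotic cells in plants, was the most abundant of the 3 cyclins. It had 13.1, 7.30 and 9.45 FPKM in IR64 drought libraries, against 19.1, 20.8 and 18.9 FPKM in IR64 controls. It had 14.3, 5.31 and 15.3 FPKM in N22 drought libraries, against 23.4, 21.6 and 25.4 FPKM in N22 controls. Drought library 2 was again lowest in both cultivars, and in N22 the other drought libraries were close to each other. CYCB1.1 fell by 1.07 in N22 (SE 0.31, limma adjusted p = 0.0210). The IR64 difference of -0.94 (SE 0.31, limma adjusted p = 0.0437) passed the p threshold and missed the size threshold.

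CYCB2.1, the closest relative of CYCB2.2 among the 5 genes by its name, was the least abundant in control. Its level was 6.92, 3.26 and 5.84 FPKM in IR64 drought libraries, against 11.0, 11.2 and 10.5 FPKM in IR64 controls. In N22 it was 6.13, 2.58 and 7.46 FPKM under drought, against 10.0, 8.36 and 12.2 FPKM in control. In N22 the highest drought library and the lowest control library came within 1 FPKM of each other, so that the gap between groups was small there. The log2 differences were -0.96 in IR64 (SE 0.31, limma adjusted p = 0.0386) and -0.88 in N22 (SE 0.31, limma adjusted p = 0.0425), both short of the size threshold.

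Of the kinases, CDKB2.1 was the most abundant of all 5 genes in every group. CDKB2 kinases act in the late G2 phase and in mitosis. CDKB2.1 had 17.7, 9.05 and 17.4 FPKM in IR64 drought libraries, against 34.4, 31.5 and 31.4 FPKM in IR64 controls. It had 17.0, 6.43 and 24.8 FPKM in N22 drought libraries, against 34.8, 30.8 and 38.3 FPKM in N22 controls. The N22 drought libraries had the widest spread of any group and gene, with a mean of 16.1 ± 9.23 FPKM beside 34.6 ± 3.74 FPKM in N22 controls (SD, n = 3 each). CDKB2.1 fell by 1.14 in IR64 (SE 0.39, limma adjusted p = 0.0459) and fell by 1.23 in N22 (SE 0.39, limma adjusted p = 0.0277).

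CDKB1.1, of the kinase class whose transcripts in Arabidopsis appear earlier, from the S phase on, changed least in size. It had 12.4, 8.69 and 13.9 FPKM in IR64 drought libraries, against 20.9, 17.2 and 18.7 FPKM in IR64 controls. In N22 it had 8.43, 4.92 and 10.4 FPKM under drought, against 14.9, 12.6 and 14.9 FPKM in control. Both cultivars showed a full separation of the groups, as for the other genes. The log2 differences were -0.67 in IR64 (SE 0.23, limma adjusted p = 0.0471) and -0.81 in N22 (SE 0.23, limma adjusted p = 0.0174), past the p threshold and short of the size threshold.

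The calls past both thresholds rested on small margins. With the library number as a block, the differences were the same, so the margin in size was unchanged, and limma adjusted p was lower. In IR64 it was 0.00839 for CYCB2.2 and 0.0148 for CDKB2.1. In N22 it was 0.00440 for CYCB2.2, 0.00850 for CDKB2.1 and 0.0113 for CYCB1.1. The fits that follow had no block. Without the drought library 2 of the cultivar concerned, none of the 5 genes passed both thresholds. CYCB2.2 then differed by -0.97 in IR64 (limma adjusted p = 0.0803) and by -0.84 in N22 (limma adjusted p = 0.0166), and CDKB2.1 by -0.85 in IR64 (limma adjusted p = 0.161) and by -0.72 in N22 (limma adjusted p = 0.0688). CYCB1.1 differed by -0.63 in N22 without that library (limma adjusted p = 0.0332). Leaving out both drought libraries numbered 2 together, a choice made after seeing the data, gave the same differences with limma adjusted p of 0.00284 for CYCB2.2 and 0.00745 for CDKB2.1 in IR64, and of 0.00386 for CYCB2.2, 0.0117 for CDKB2.1 and 0.0112 for CYCB1.1 in N22, so that there only the size threshold was missed. Leaving out any single IR64 control library also ended the calls of CYCB2.2 (limma adjusted p of 0.0537 to 0.0589) and CDKB2.1 (0.0954 to 0.113) in IR64, with differences of -1.10 to -1.21, and leaving out IR64 drought library 1 ended that of CDKB2.1 (0.0646). In N22, leaving out any single control library ended the call of CDKB2.1 (0.0514 to 0.0806), and leaving out control library 1 or 3 ended that of CYCB1.1 (0.0550 and 0.0643). Without N22 drought library 3, all 5 genes passed both thresholds in N22, with CDKB1.1 at -1.02 and CYCB2.1 at -1.13. In IR64, CYCB2.1 passed both with a pseudocount of 0.1 (-1.08, limma adjusted p = 0.0485) and without drought library 1 (-1.14, 0.0415) or 3 (-1.03, 0.0474). CYCB1.1 passed both in IR64 with that pseudocount (-1.01, 0.0497) and without drought library 1 (-1.14, 0.0426). With array weights, CYCB2.2 (-0.96) and CDKB2.1 (-0.85) in IR64 and CYCB1.1 (-0.72) in N22 were short of the size threshold. The call of CDKB2.1 ended with no filter on low values (limma adjusted p of 0.0845 in IR64 and 0.0538 in N22) and, in IR64, with a pseudocount of 0.1 (0.0521), and fitting the 6 N22 libraries alone ended the 3 calls in N22 (0.0657 to 0.0961). All 5 genes were lower under drought in both cultivars in each of these fits.

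**Figure D2:**
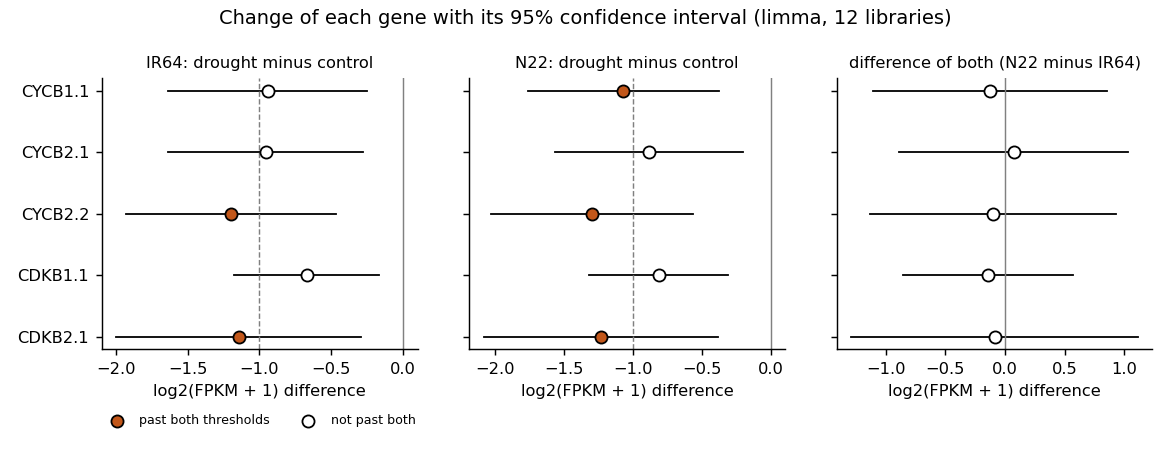
Difference of each gene on the log2(FPKM + 1) scale with its 95% confidence interval, for drought minus control in IR64 and in N22 and for the N22 response minus the IR64 response; filled points passed both thresholds and the dashed line marks the size threshold of -1. In both cultivars every interval lies below 0 and reaches across -1, and every interval of the difference between cultivars includes 0.

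Averaged over both cultivars, CYCB2.2 fell by 1.25 (SE 0.23, limma adjusted p = 0.00138), CDKB2.1 fell by 1.19 (SE 0.27, limma adjusted p = 0.00431) and CYCB1.1 fell by 1.01 (SE 0.22, limma adjusted p = 0.00343). CYCB2.1 at -0.92 and CDKB1.1 at -0.74 stayed short of the size threshold, with limma adjusted p of 0.00506 and 0.00318. Of all loci, 4.42% passed both thresholds in the lower direction in this comparison. With both drought libraries numbered 2 left out, 0 of the 5 genes passed both in limma, as the averaged changes of CYCB2.2, CDKB2.1 and CYCB1.1 became -0.91, -0.79 and -0.70 and missed the size threshold, with limma adjusted p of 0.000296, 0.000918 and 0.000834. Without N22 drought library 2 alone, 1 of the 5 passed both. CYCB1.1 also missed the size threshold with median-of-ratios scaling (-0.999) and with array weights (-0.64). It missed it as well without IR64 control library 2, IR64 drought library 2 or 3, or N22 control library 3 (-0.92 to -0.9999). CDKB2.1 missed it with array weights (-0.94).

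The series sets a drought-sensitive cultivar beside a tolerant one, and the question whether their responses differ was addressed by the difference between the drought responses. None of the 5 genes passed in limma, at the adjusted thresholds or at an unadjusted p of 0.05, while 0.247% of all loci passed both thresholds and 6.78% had an unadjusted p of at most 0.05. The N22 response minus the IR64 response lay between -0.14 for CDKB1.1 and 0.07 for CYCB2.1 on the log2 scale. The 95% confidence intervals were wide, reaching from -1.29 to 1.12 for CDKB2.1 and from -0.85 to 0.57 for CDKB1.1. A cultivar difference as large as the drought response itself was therefore within the interval for CDKB2.1, and equal responses were not shown.

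Between the cultivars under the same condition, 0 of the 5 genes passed both thresholds in limma, beside 10.7% of all loci under drought and 9.92% in control. At an unadjusted p of 0.05, 1 gene differed under drought, beside 33.5% of all loci, and 0 in control, beside 28.3%. Under drought the N22 and IR64 libraries overlapped for all 5 genes, while 31.6% of all loci did not overlap. The gene with the largest cultivar difference was CDKB1.1, which averaged 7.93 ± 2.79 FPKM in N22 and 11.7 ± 2.68 FPKM in IR64 under drought (SD, n = 3 each), a log2 difference of -0.53 (SE 0.23, limma adjusted p = 0.126, unadjusted p = 0.0396). With the library number as a block, its adjusted p was 0.0230, and its lowest adjusted p over the alternatives was 1.25e-05, with array weights, the difference staying short of the size threshold. In control it averaged 14.2 ± 1.32 FPKM in N22 and 18.9 ± 1.87 FPKM in IR64, without overlap, with a log2 difference of -0.39 (SE 0.23, limma adjusted p = 0.317, and 0.0333 with only the 6 control libraries fitted). CYCB1.1 in control had the opposite order, 23.5 ± 1.87 FPKM in N22 and 19.6 ± 1.03 FPKM in IR64, also without overlap (log2 difference 0.25, SE 0.31, limma adjusted p = 0.717). Over all loci, 21.5% were lower and 19.7% higher without overlap in N22 controls. The remaining 3 genes overlapped between the cultivars in control.

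The order of the levels was clear in control and blurred under drought. In N22 controls CDKB2.1 stood above CYCB1.1, which stood above CDKB1.1 and CYCB2.2, these overlapping with each other, and CYCB2.1 was lowest, apart from CYCB2.2. In IR64 controls CDKB2.1 was again highest and apart from the next, CYCB1.1 and CDKB1.1 overlapped, and CYCB2.2 and CYCB2.1 followed, each apart from its neighbour. Under drought CDKB2.1 was still the highest by its mean in both cultivars, but in N22 all neighbours overlapped, and in IR64 all but CYCB1.1 and CYCB2.1 did. By mean FPKM over all 12 libraries, CDKB2.1 (24.5) exceeded 74.8% of the loci tested and CYCB2.1 (7.96) exceeded 44.8%, so the 5 genes lay in the middle to upper range.

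Ratios between genes of one family were also taken within each library. The ratio of CYCB2.2 to CYCB2.1 was 0.868, 1.03 and 0.994 in IR64 drought libraries, against 1.15, 1.14 and 1.16 in IR64 controls. It was 1.04, 0.874 and 1.15 in N22 drought libraries, against 1.46, 1.51 and 1.24 in N22 controls. The ratio was lower under drought without overlap in both cultivars, and near 1 there. The ratio of CDKB2.1 to CDKB1.1 was 1.42, 1.04 and 1.25 in IR64 drought libraries, against 1.65, 1.84 and 1.68 in IR64 controls, without overlap. In N22 it was 2.02, 1.31 and 2.38 under drought, against 2.33, 2.44 and 2.56 in control, where drought library 3 overlapped with the controls. The ratios are given as a description and were not tested.

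**Figure D3:**
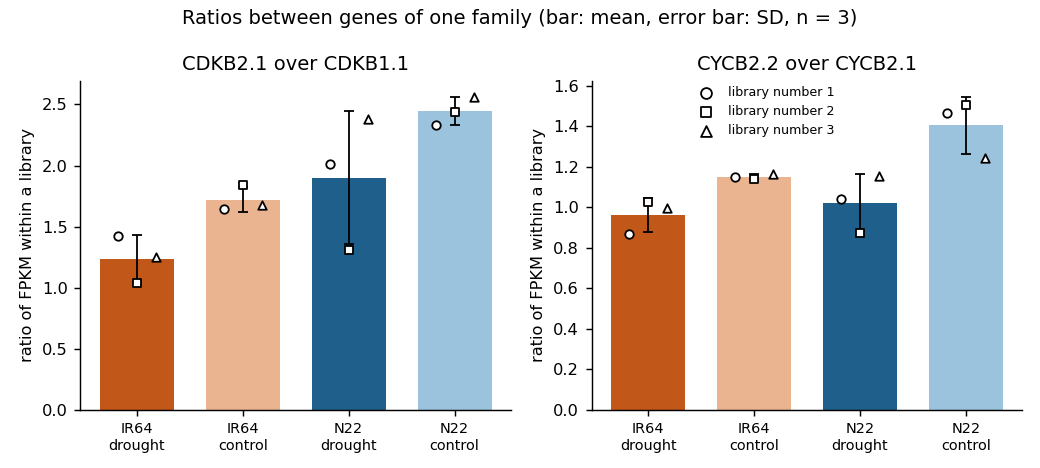
Ratio of CDKB2.1 to CDKB1.1 and of CYCB2.2 to CYCB2.1 within each library, drought left of control; bars are means of 3 libraries, error bars SD, and symbols mark the library number. The CYCB2.2 to CYCB2.1 ratio is lower in every drought library than in every control of its cultivar, and the CDKB2.1 to CDKB1.1 ratio overlaps between the N22 groups.

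The libraries of one number were set beside each other because same-numbered libraries deviated together. Between drought and control this was weak in N22, with correlations of 0.118 to 0.169, against 0.261 to 0.405 in IR64. Differently numbered libraries were not compared in this way. In drought libraries numbered 2, the 5 genes had a median of 29.1% of the same-numbered control level in IR64 and of 24.6% in N22. For number 1 the medians were 59.4% in IR64 and 56.5% in N22, and for number 3 they were 55.4% in IR64 and 61.3% in N22. Drought library 2 was lowest for 5 of 5 genes in both cultivars. It was also lowest for 56.9% of the 5636 loci that were lower without overlap in IR64, and for 59.7% of the 6325 such loci in N22. The part of library 2 in the results was not tested beyond the fits without it.

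Genes of the S phase, in which DNA is replicated, were set beside them by library number. Their median was 36.8% of control for number 1, 29.9% for number 2 and 66.2% for number 3 in IR64, and 23.1%, 18.4% and 58.0% for those numbers in N22. In libraries numbered 1 the median of the 12 S-phase genes thus stood below that of the 5 mitotic genes in both cultivars, while for number 3 the S-phase median was above that of the 5 genes in IR64 and below it in N22. These differences between the lists were not tested. CDK inhibitors had medians between 101% and 119% over the 6 pairs, and single genes among them ranged from 36.7% to 220.0%, the highest being EL2, which stood above its control in all 6 pairs. Over all loci the medians lay between 97.8% and 100.3%.

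**Figure D4:**
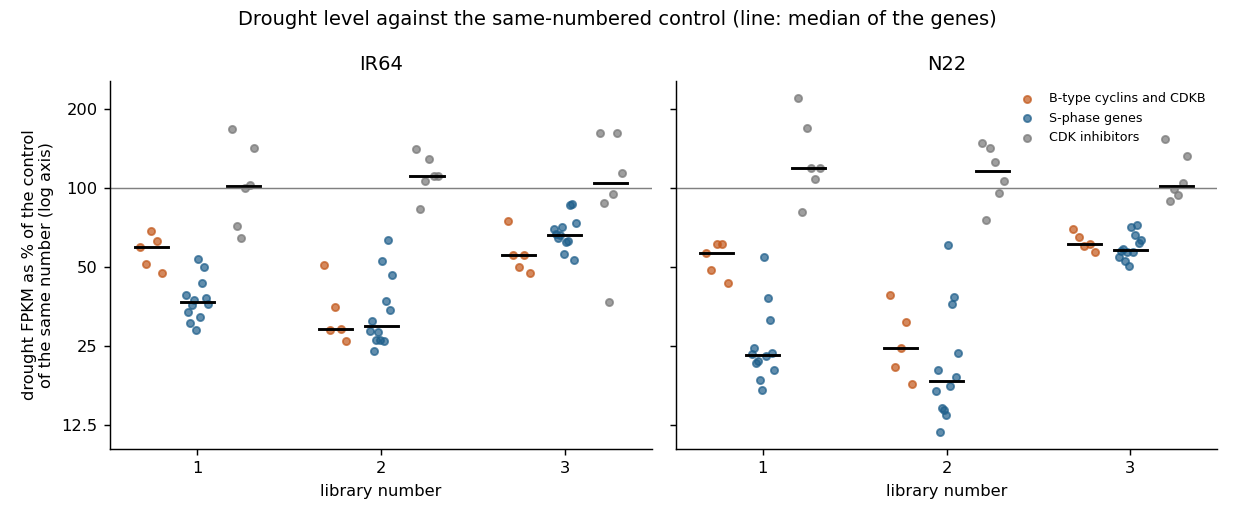
Drought FPKM as a percentage of the control library of the same number, on a log axis, for the 5 genes, 12 S-phase genes and 6 CDK inhibitors in each cultivar; points are genes and black lines medians. The 5 genes are lowest for number 2 in both cultivars, and the S-phase genes are low for numbers 1 and 2.

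Other parts of the cell cycle machinery were described from lists of genes, by their counts and medians beside those of all loci, whose median log2 change was 0.00 in both cultivars. The share of all loci past both thresholds in the lower direction, to be set beside the count of each list, was 4.02% in IR64 and 5.17% in N22. Of 12 S-phase genes, 7 fell in IR64 and 10 in N22, with median changes of -1.06 in IR64 and -1.52 in N22. The IR64 count was 0 without drought library 1 or 2 or control library 1 or 2, 1 without control library 3 and 9 without drought library 3, and the N22 count was 9 or 10 with single libraries left out. PCNA, the sliding clamp of DNA polymerase, had 16.3, 10.9 and 24.5 FPKM in IR64 drought libraries, against 50.7, 41.5 and 39.1 FPKM in IR64 controls, and fell by 1.36 (SE 0.39, limma adjusted p = 0.0242). In N22 it fell by 1.74 (SE 0.39, limma adjusted p = 0.00615). The IR64 calls of PCNA and of MCM4, a subunit of the replicative helicase, ended without any single control library or drought library 1 or 2 (limma adjusted p of 0.0508 to 0.0902 for PCNA and 0.0739 to 0.128 for MCM4). MCM4 fell by 1.18 in IR64 and fell by 1.64 in N22 (SE 0.38 in each, limma adjusted p of 0.0373 and 0.00713).

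Among 7 tested A-type and other B-type cyclins, of 8 in the files, 1 fell in IR64 and 2 fell in N22, with median changes of -0.47 in IR64 and -0.40 in N22. CYCA3.1, an A-type cyclin, fell in both cultivars, by 1.08 in IR64 (SE 0.31, limma adjusted p = 0.0239) and fell by 1.62 in N22 (SE 0.31, limma adjusted p = 0.00303). Its IR64 call ended without control library 1 or 2 or drought library 1 or 2 (limma adjusted p of 0.0579 to 0.0793). CYCB1.5, another B-type cyclin, had 7.97, 3.88 and 7.81 FPKM in IR64 drought libraries, against 16.4, 14.0 and 14.5 FPKM in IR64 controls. It fell in N22 by 1.33 (SE 0.40, limma adjusted p = 0.0237), and its IR64 difference of -1.13 missed the p threshold (SE 0.40, limma adjusted p = 0.0550). With the replicate block CYCB1.5 passed in IR64 too (SE 0.29, limma adjusted p = 0.0154), which made the IR64 count 2, while leaving out single libraries gave counts of 0 to 1 in IR64 and 1 to 2 in N22. Its N22 call ended without control library 1 or 3 (limma adjusted p of 0.0633 and 0.0715) or drought library 2 (-0.78, limma adjusted p = 0.0482).

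Of 9 mitotic regulators, a list drawn up to hold spindle checkpoint, Aurora kinase, anaphase-promoting and related genes, some of them with no entry in the gene table, 2 fell in IR64 and 3 in N22, with median changes of -0.76 in IR64 and -0.80 in N22. The IR64 count was 0 without drought library 2 or control library 1 or 2 and 4 without drought library 1, and the N22 count was 0 without drought library 2 and 5 without drought library 3. At an adjusted p of at most 0.05 alone, 6 of the 9 were lower in each cultivar, beside 15.8% of all loci in IR64 and 19.5% in N22. The list also holds MYB3R-2, a rice MYB factor known to activate B-type cyclin transcription, which was picked out here after its values were seen. Its log2 differences were 0.04 in IR64 (SE 0.14, limma adjusted p = 0.886; -0.04 without drought library 2) and 0.34 in N22 (SE 0.14, limma adjusted p = 0.0777).

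Cyclin-dependent kinases outside the CDKB class were counted in the same way. Of 5 tested, 0 passed both thresholds in limma in either cultivar, while 2 in IR64 and 3 in N22 had an adjusted p of at most 0.05 in either direction, beside 30% of all loci in IR64 and 39% in N22. Their median changes were 0.21 in IR64 and 0.34 in N22. CDKC2, of a kinase class that acts on transcription rather than division, was the most abundant, at 60.8, 69.0 and 53.7 FPKM in IR64 drought libraries, against 42.9, 48.2 and 46.4 FPKM in IR64 controls. Its differences of 0.40 in IR64 and 0.53 in N22 (SE 0.13 in each) had limma adjusted p of 0.0418 and 0.0104. The A-type kinases, which act in both the S phase and mitosis, were singled out after their values were seen. CDKA2 differed by -0.88 in IR64 and by -0.80 in N22 (limma adjusted p of 0.00181 and 0.00174), while CDKA1 had differences of -0.24 in IR64 and -0.16 in N22 (limma adjusted p of 0.0770 and 0.201).

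D-type cyclins, which act at the entry into the cell cycle, had 0 of 6 tested past both thresholds in limma in either cultivar, and median changes of -0.47 in IR64 and -0.68 in N22. The IR64 count was 1 without control library 3 or drought library 3, and the N22 count was 1 without control library 1 and 3 without drought library 3. At an adjusted p of at most 0.05 alone, 3 were lower and 1 was higher in IR64, and 4 were lower and 1 was higher in N22. That p was reached in either direction by 30% of all loci in IR64 and 39% in N22, and in the lower direction by 15.8% and 19.5%. The most abundant, CYCD6.1, averaged 8.96 ± 2.94 FPKM under drought and 17.3 ± 3.21 FPKM in control in IR64 (SD, n = 3 each), with a log2 difference of -0.90 (SE 0.26, limma adjusted p = 0.0246). Its N22 difference was -0.95 (SE 0.26, limma adjusted p = 0.0149). With single libraries left out, CYCD6.1 met the size threshold in IR64 without control library 3 (-1.03) or drought library 3 (-1.12). In N22 it did so without control library 1 or drought library 3 (-1.24). With all libraries kept, CYCD6.1 passed both thresholds with array weights in IR64 (-1.25, limma adjusted p = 2.49e-05) and in N22 (-1.15, limma adjusted p = 8.91e-06). In N22 it also passed both with a pseudocount of 0.1 (-1.02, limma adjusted p = 0.0170) and with quantile scaling, alone or with the replicate block.

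The list of CDK inhibitors holds proteins that bind and block cyclin-dependent kinases, and WEE1, a kinase that restrains them by phosphorylation. It had 0 of 6 tested past the adjusted p threshold in limma in either cultivar, beside 30% of all loci in IR64 and 39% in N22. Their median changes were 0.17 in IR64 and 0.19 in N22. EL2, an inhibitor of the SIAMESE family, was the most abundant, and averaged 138.6 ± 38.5 FPKM under drought and 83.6 ± 35.0 FPKM in control in N22 (SD, n = 3 each), with a log2 difference of 0.77 (SE 0.29, limma adjusted p = 0.0608). Without N22 control library 2 it was past both thresholds (1.08, limma adjusted p = 0.0151). Of 5 E2F and retinoblastoma-related genes, which gate entry into the S phase, 0 passed both thresholds in limma and 2 had an adjusted p of at most 0.05 in each cultivar, both lower. That p was reached in either direction by 30% of all loci in IR64 and 39% in N22, and in the lower direction by 15.8% and 19.5%. RBR2, the most abundant of them, differed by 0.06 in IR64 and by -0.02 in N22 (SE 0.12 in each, limma adjusted p of 0.766 and 0.931). In N22, 1 gene of the list passed both thresholds without control library 2 or without drought library 3.

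**Figure D5:**
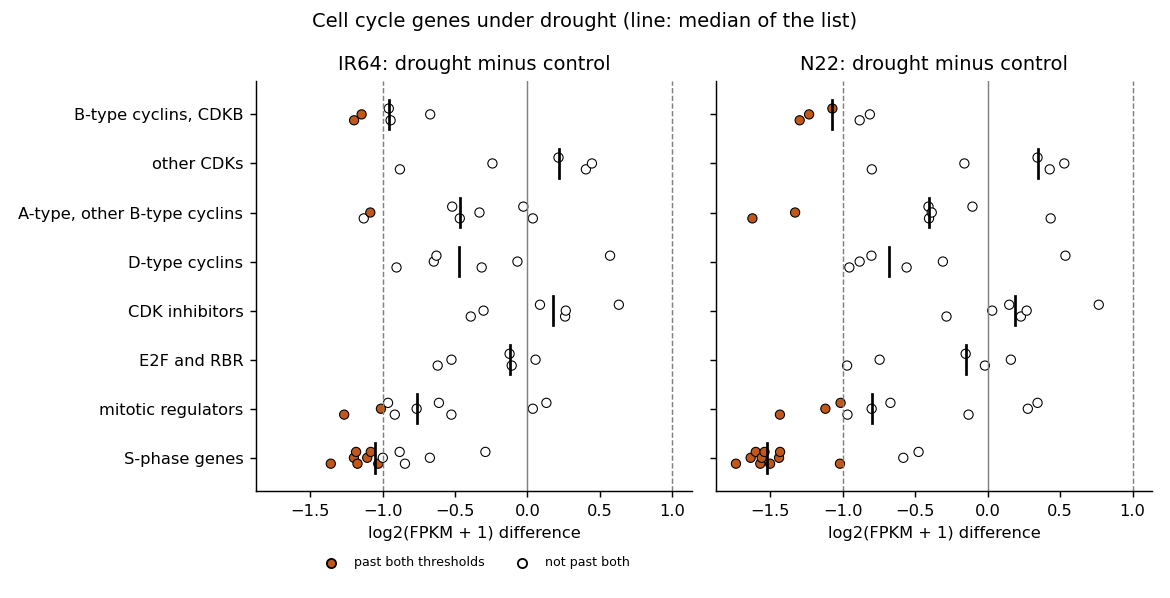
Difference between drought and control on the log2(FPKM + 1) scale for each tested gene of 8 lists of cell cycle genes, in IR64 and in N22; filled points passed both thresholds, black lines are list medians and dashed lines mark -1 and 1. The 5 genes and the S-phase genes lie to the left of 0 in both cultivars, and the CDK inhibitors lie around 0.

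The 5 genes varied together over the libraries. Pearson correlations of log2(FPKM + 1) over the 12 libraries, for the 10 pairs of genes, lay between 0.768 and 0.993 with a median of 0.965, and the pairs with CDKB1.1 were the lower ones. All libraries enter each correlation, so the gap between drought and control, the library numbers and any shared depth are part of it. By the mean of its 5 correlations with these genes, the locus most like them was LOC_Os04g40940 (0.962), followed by CYCB1.5 (0.959) and LOC_Os07g32390 (0.958). The next loci from the lists of cell cycle genes with a name in the gene table were RSS1 (0.938), at rank 61, and MCM5 (0.913), at rank 294. RSS1 is a rice protein needed for cell division under salt stress, and MCM5 is a helicase subunit. Likeness was not confined to cell cycle genes. A leaf marker locus, from the lists described below, stood at rank 396 (0.906), ahead of PCNA (0.902) at rank 469. The leaf marker loci ran from -0.742 to 0.906 with a median of 0.815. The median was 0.898 for the S-phase genes and 0.008 over all loci. The list of mitotic regulators holds LOC_Os04g40940 and the loci at rank 4 (0.956) and rank 48 (0.940), none of which has a name in the gene table. Loci outside the lists were not matched to names, so the other loci ranked above MCM5 were left unnamed. RSS1 had log2 differences of -0.92 in IR64 and -0.97 in N22 (SE 0.24 in each, limma adjusted p of 0.0167 and 0.00968), short of the size threshold. It met that threshold in IR64 without control library 3 or drought library 1 (-1.04), and in N22 without control library 2 (-1.01), drought library 1 (-1.07) or drought library 3 (-1.15). With a pseudocount of 0.1 and all libraries kept, RSS1 passed both thresholds in IR64 (-1.17, limma adjusted p = 0.0244) and in N22 (-1.23, limma adjusted p = 0.0155).

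Markers of organs and cell types were summed in each library, and the leaf sums were lower in all drought libraries of both cultivars. The summed FPKM of 5 leaf marker loci was 2061 to 3060 in IR64 drought libraries, against 6997 to 9459 in IR64 controls, and 1661 to 4481 in N22 drought libraries, against 7863 to 9758 in N22 controls. Most of each control sum came from 1 locus, LOC_Os12g17600, at 5458 to 7490 FPKM in IR64 controls and 6450 to 7705 FPKM in N22 controls. Among them, 3 fell and 1 rose in IR64, and 3 fell and 2 rose in N22. CAB1R rose in both cultivars and CAB2R in N22. Over both cultivars, CAB1R was at 337% to 898% of the same-numbered control and CAB2R at 105% to 314%. The sum of 5 root marker loci was 607 to 961 in IR64 drought libraries, against 1107 to 1388 in IR64 controls, and 366 to 849 in N22 drought libraries, against 916 to 1196 in N22 controls, and of the 4 tested 0 passed both thresholds in IR64 and 1 fell in N22. The highest root marker in every control library was LOC_Os02g37190. It was at 19.8% to 90.9% of the same-numbered control over both cultivars. LSI1 was at 48.4% to 96.9%, LSI2 at 60.0% to 119% and IRT1 at 103% to 369%. The sum of 6 meristem marker loci was 28.3 to 32.4 in IR64 drought libraries, against 26.1 to 33.0 in IR64 controls, and 25.4 to 28.1 in N22 drought libraries, against 31.3 to 35.5 in N22 controls, and 0 of the 5 tested passed both thresholds in limma. At a limma adjusted p of at most 0.05 alone, 1 was lower and 1 higher in IR64 and 3 were lower in N22. Of all loci, 30% in IR64 and 39% in N22 passed that in either direction. The IR64 sum joins opposite moves. OSH15 was at 11.3 to 14.5 FPKM in IR64 drought libraries, against 8.99 to 9.52 FPKM in IR64 controls. SCR1, SHR1 and SHR2 were below control in every same-numbered IR64 pair. Every marker locus was above 0 in every library. The part of organ or cell type composition in the levels of the 5 genes was not tested.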

How the data were processed

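The 12 libraries were grouped by cultivar and treatment from the submitters' labels. The deposited values are FPKM, which the authors computed with Cufflinks 2.2.1 after alignment with TopHat2 2.1.1, per the submitters' processing notes. The design text names NGSQC Toolkit 2.3.3 for read filtering and RGAP 7.0 as the genome, indexed with bowtie 2.3.3.0, and says that a value missing from 1 replicate was filled in with missForest. Whether the deposited values hold filled ones is not stated. Each file holds 30625 to 32107 rows, with FPKM sums of 684525 to 761822, and no 2 libraries were identical. Of 39718 rows over all libraries, 2467 carried no locus name. Rows of the same locus name were summed, and where a library did not list a locus its value was set to 0. Among low FPKM values, 4.94% to 23% of ratios between libraries lay within 1% of the commonest ratio, so whole reads could not be recovered, the depth is unknown and no counting interval is given.

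A locus was tested if 2 of the 3 replicates in any group reached an FPKM of 1, which 24276 loci did. With a pseudocount of 1, limma (version 3.58.1, in R 4.3.3) fitted a mean per group to the log2 values of all 12 libraries, with its trend option, and gave two-sided p-values for 6 contrasts. These were adjusted over all loci by Benjamini-Hochberg within a contrast. Both thresholds together mean an adjusted p no higher than 0.05 and a log2 change of 1 or more in size. The fit was tested on simulated data. The design text calls the replicates biological but does not say what was grown or pooled separately, and p-values can reflect only how far these libraries spread.

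Same-numbered libraries deviated together (12 of 12 correlations above 0.1, 0.118 to 0.595). The lowest of these correlations were those between drought and control in N22. Differently numbered libraries were not correlated, so it was not established that the numbers pair the samples. The calls, counts and shares reported come from the fit without a block, and the fit with a block is given as an alternative. Members and lists were chosen with earlier results of these data known. Of 77 pairs of gene name and locus, 49 had the name in RefSeq's list of genes for assembly ASM3414082v1, 21 had no entry there and 7 that contradicted its chromosome or gene order were dropped. Named genes are, for each list, up to 2 with the largest mean change among those called, or else the most abundant one, where RefSeq's list holds the name. To these were added 5 loci like the members, at most 2 of them by locus name alone and the others from the lists of genes. Tables were read with pandas 2.3.3 and data.table (version 1.17.8), and plots were drawn with matplotlib 3.10.9.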

Additional observations from a re-analysis of the deposited data

How the results depend on the processing

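All 5 genes were lower under drought in each cultivar under every alternative fitted to it, and the count of genes past both thresholds moved. In IR64 (2 as reported) it was 1 with no filter on low values, 0 with array weights, 5 at the adjusted p alone, 0 without both drought libraries numbered 2 (chosen after seeing the data) and 0 to 3 with single libraries left out. In N22 (3 as reported) it was 5 at the adjusted p alone, 0 with only the 6 libraries compared, 5 without both drought libraries numbered 3, 0 without both numbered 2 and 0 to 5 with single libraries left out. Averaged over cultivars (3 as reported) it was 1 with array weights, 5 at the adjusted p alone, 0 without both numbered 2 and 1 to 4 with single libraries left out. Not every smaller move is listed. With a pseudocount of 0.1, CYCB1.1 and CYCB2.1 passed both in IR64 and CDKB2.1 did not. In N22, CDKB2.1 dropped out with no filter and CYCB1.1 with array weights. In the average, CYCB1.1 dropped out with median-of-ratios scaling (-0.999) and CYCB2.1 passed with a pseudocount of 0.1 (-1.05). The cause was not tested beyond the smaller number of samples or loci that some alternatives use. The replicate block changed no call or count of the 5 genes, with 2 called in IR64 and 3 in N22, and 2132 and 2921 loci in all. Among the lists it moved the count of A-type and other B-type cyclins in IR64 to 2 (1 as reported), through CYCB1.5.

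Over all loci, the counts at the adjusted p alone were 7272 in IR64, 9475 in N22, 12725 averaged, 5749 between cultivars under drought and 4626 in control. With an FPKM minimum of 5, the cultivar counts were 1586 under drought (2604 as reported) and 1370 in control (2407 as reported). The 60 loci of the response difference became 924 with array weights, 356 without both drought libraries numbered 3 and 23 to 320 with single libraries left out.

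Signs turned only for differences that were not called. For the response difference, N22 minus IR64, leaving out single libraries gave -0.35 to 0.13 for CDKB1.1, -0.47 to 0.42 for CDKB2.1, -0.37 to 0.31 for CYCB1.1, -0.19 to 0.45 for CYCB2.1 and -0.42 to 0.36 for CYCB2.2. Without both numbered 2 it was 0.13 for CDKB2.1, 0.13 for CYCB1.1 and 0.13 for CYCB2.2, and CYCB2.1 was at -0.094 with array weights and -0.10 without both numbered 3. For N22 against IR64 under drought, single libraries left out gave -0.39 to 0.51 for CDKB2.1, -0.12 to 0.56 for CYCB1.1, -0.29 to 0.34 for CYCB2.1 and -0.27 to 0.51 for CYCB2.2. CDKB2.1 was there at 0.0066 with quantile scaling, alone or with the replicate block, 0.0061 with median-of-ratios scaling and 0.22 without both numbered 2. CYCB2.1 was at 0.079 without both numbered 2, and CYCB1.1 at -0.14 and CYCB2.2 at -0.17 without both numbered 3. In control, CYCB2.1 ranged over -0.23 to 0.016 with single libraries left out. Of the other named genes, MYB3R-2 in IR64 ranged over -0.041 to 0.14 with single libraries left out and was at -0.041 without both numbered 2, and RBR2 in N22 ranged over -0.11 to 0.11 and was at 0.081 with array weights and 0.11 without both numbered 3. The depth is unknown, so no limit from counting error is given.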
